A study of Mus musculus with 10 samples.

Results

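The loci described here are 138 long genes of the mouse, each with a locus of at least 300 kb in the expression tables of a study of the male germline. The rule that chose them uses only the locus: its end minus its start, on chromosomes 1 to 19, with no other gene listed there. Earlier results of these data were known when the loci were chosen. The 138 loci are a small share of the 36806 rows that each table holds. Of the 1994 autosomal rows that reach this span, 1856 were left out because they share their locus with another row, and such shared loci held up to 152 rows each. The study set Ago4+/+ mice against their Ago4-/- littermates, all on the C57BL/6 strain. Ago4 encodes an Argonaute protein, a member of the family that binds small RNAs. Isolated pachytene spermatocytes and leptotene/zygotene spermatocytes came from animals of 70 days, and whole testes came from animals of 3 days and 8 days. With 1 mRNA library per genotype and stage there were 8 mRNA libraries. The 2 small RNA libraries of pachytene cells are not analysed here.

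Genes of this span consist almost wholly of introns, and many of them encode adhesion molecules, receptors, channels and scaffolds that are best known from neurons. RNA polymerase needs a long time to cross such a gene, so a finished transcript appears long after transcription starts. In the testis, long genes are also active in Sertoli cells and other somatic cells, and a smaller group is switched on in spermatocytes and spermatids. The values are FPKM (fragments per kilobase of transcript, scaled to the number of mapped fragments). The kilobases in that unit are those of the transcript, not of the locus, so a span of 300 kb does not by itself lower an FPKM value.

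Each table gives 2 conditions, named only as its first and second. That a condition is 1 library is taken from the labels, which list 1 mRNA library per genotype and stage. The table headers do not state it, and no label names a pre-meiotic stage. Neither the tables nor the labels say which condition is Ago4+/+ and which is Ago4-/-, and the order may differ between tables. All differences are therefore given as condition 2 relative to condition 1, with no genotype attached, and "lower in condition 2" can as well be read as higher in condition 1. Whether the pre-meiotic table holds testes of day 8 is not said, so its age is left unstated. The 4 tables were normalized separately, so levels set across tables are descriptions of what each table lists. No strand-keeping step is named in the labels, so reads of overlapping or antisense genes cannot be told apart. In whole testis, fewer cells of a type and less RNA per cell cannot be told apart. The libraries have no replicates, so no error between animals could be estimated. The only test is the authors' own Cuffdiff q-value, which compares 2 libraries and not 2 genotypes.

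The stage labels were set beside marker genes of each cell type. The 14 spermatid markers summed to 53047 and 62733 FPKM in the leptotene/zygotene table, against 8799 and 10853 in the pachytene table. The 15 leptotene/zygotene markers summed to 724 and 661 FPKM in the table of that name, against 1207 and 1015 in the pachytene table. The labelled leptotene/zygotene material was thus not set apart by its own markers and held abundant spermatid transcripts. The 12 blood and macrophage markers summed to 56.1 and 398.6 FPKM in the conditions of the leptotene/zygotene table, and to 13.9 and 65.8 in the pachytene table. The 19 Sertoli cell markers summed to between 6725 and 10325 FPKM in the day 3 and pre-meiotic tables and to between 205 and 423 in the other tables.

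To show what lies upstream of long genes with opposite stage patterns, the 250 bases before the annotated start are printed for 4 of them, 5′ to 3′ on the strand of the gene. Capitals mark CpG dinucleotides. Spata16, needed for the formation of the sperm acrosome, and Mgat4c, a glycosyltransferase gene, were listed far higher in the tables of meiotic cells. Adcy2, an adenylate cyclase that makes cyclic AMP, and Fbxl7, a substrate-binding subunit of a ubiquitin ligase, were listed far higher at day 3. The sequences and positions are those of RefSeq on GRCm38.p6, at chr3:26637381-26637630 (plus strand) for Spata16, chr10:101681237-101681486 (plus strand) for Mgat4c, chr13:68999542-68999791 (minus strand) for Adcy2 and chr15:26895565-26895814 (minus strand) for Fbxl7.
Spata16: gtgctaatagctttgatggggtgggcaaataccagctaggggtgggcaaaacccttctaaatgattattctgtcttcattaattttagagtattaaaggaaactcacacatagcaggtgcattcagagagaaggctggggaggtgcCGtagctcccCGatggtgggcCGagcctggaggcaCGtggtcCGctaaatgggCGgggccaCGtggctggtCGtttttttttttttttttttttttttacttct
Mgat4c: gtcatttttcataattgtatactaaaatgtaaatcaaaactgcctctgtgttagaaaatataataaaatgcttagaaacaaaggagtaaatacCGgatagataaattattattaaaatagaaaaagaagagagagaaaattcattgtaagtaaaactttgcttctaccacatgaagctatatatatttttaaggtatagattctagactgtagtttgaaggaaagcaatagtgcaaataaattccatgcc
Adcy2: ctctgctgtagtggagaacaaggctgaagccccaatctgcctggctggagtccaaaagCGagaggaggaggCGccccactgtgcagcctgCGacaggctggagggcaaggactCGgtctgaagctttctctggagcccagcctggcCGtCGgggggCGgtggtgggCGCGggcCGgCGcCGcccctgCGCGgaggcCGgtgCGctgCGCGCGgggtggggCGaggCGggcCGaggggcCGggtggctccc
Fbxl7: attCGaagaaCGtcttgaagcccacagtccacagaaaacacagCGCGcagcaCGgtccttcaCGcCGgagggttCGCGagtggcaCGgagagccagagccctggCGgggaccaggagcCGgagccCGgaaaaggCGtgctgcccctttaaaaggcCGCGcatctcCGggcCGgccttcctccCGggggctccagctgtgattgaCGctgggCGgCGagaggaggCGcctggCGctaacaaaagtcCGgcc
The window of Mgat4c holds 1 CpG and that of Spata16 holds 8, while those of Adcy2 and Fbxl7 hold 23 and 25. Windows poor in CpG also occur on the day 3 side, with 2 CpG each for Sema3a and Cntn4. The 4 genes were picked after their levels were seen, and the start used is the most upstream one that RefSeq annotates, which need not be the one used in these cells.

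A window could be matched for 90 of the 138 long loci. Their median number of CpG was 14 and their median G+C content 60.2%, against 8 CpG and 54.0% over 11174 shorter loci. A ratio of observed to expected CpG of at least 0.6 was found in 50 of the 90 (55.6%), against 41.7% of the shorter loci. The core of the TATA box, TATAAA, searched on both strands, was in 7.78% of the windows of long loci and in 14.4% of those of shorter loci. Shorter loci with a level at day 3 at least 4-fold above that at pachytene had it in 7.77%, with medians of 14 CpG and 59.6% G+C. Those with the opposite pattern had it in 10.7%, with medians of 6 CpG and 53.2% G+C. Values like those of the long loci were thus also found in shorter loci listed higher at day 3. Among long loci with a level at day 3 at least 4-fold above that at pachytene, 17 of 32 (53.1%) reached the CpG ratio of 0.6. Among those with the opposite pattern it was 1 of 5 (20%), namely Spata16 at 0.604, the others being Dnahc7b, Mapk10, Mgat4c and Myt1l. Shorter loci split in the same direction, at 55.5% of 2664 and 35.0% of 1507, so the split was not particular to long loci.

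The spans ran from 300602 bases for Nxph1, a neurexophilin, to 1432223 bases for Gpc5, a glypican that carries heparan sulfate at the cell surface, with a median of 387036. The median of the 20628 shorter unshared autosomal loci was 5110 bases. A span of 500 kb or more was found for 37 loci and of 1 Mb or more for 5. Those 5 were Gpc5, Auts2 (1106010 bases), the netrin receptor gene Dcc (1092332), the glypican gene Gpc6 (1054233) and the contactin gene Cntn4 (1021651). Just inside the threshold lay Nxph1, Cntn3 (301362) and Mapk10 (303387), and just outside it lay Pde1c (299814), Gm16950 (299415) and Klhl29 (298211). Pde1c, left out by under 1 kb, had 90.1 and 87.2 FPKM in the pachytene table, where Mapk10 had 63.4 and 53.1. Chromosome 1 holds 15 of the long loci and chromosome 13 holds 13.

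Long loci were more often listed as expressed in the tables of young testis than in those of meiotic cells. A mean of at least 1 FPKM was reached by 79 of 138 (57.2%) at day 3, 79 (57.2%) in the pre-meiotic table, 54 (39.1%) at leptotene/zygotene and 50 (36.2%) at pachytene. The exact 95% intervals, which cover the number of loci only, were 48.5 to 65.6% at day 3 and 28.2 to 44.8% at pachytene. Among shorter loci the shares were 44.7%, 44.2%, 40.1% and 40.8%, so long loci stood above them in the first 2 tables and near or below them in the others. The shorter loci were not matched to the long ones here, and many were listed at 0 in both conditions. These were 6179, 8006, 7777 and 6750 of 20628 in the 4 tables, against 2, 5, 6 and 2 of the long loci. High levels were less common among long loci in all 4 tables: 25, 23, 15 and 13 of them reached 10 FPKM, which is 18.1%, 16.7%, 10.9% and 9.42%. The shares of shorter loci at 10 FPKM were 28.7%, 27.8%, 19.8% and 22%. In all, 100 long loci reached 1 FPKM in at least 1 table, 34 did so in all 4, and 1 (Gm12132) was listed at 0 throughout.

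The direction of the stage difference was read for the 88 long loci with at least 1 FPKM at day 3 or pachytene. At day 3, 49 of them (55.7%) were listed at least 4-fold above the pachytene table, 11 (12.5%) were at least 4-fold below, and 28 lay between. Over 10825 shorter loci chosen alike, the shares were 39.3% and 20.1%. Spermatocytes and whole testis differ in cell makeup, and the summed Sertoli markers given above moved with this split. Their part in it was not tested.

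The genes that led the day 3 side encode adaptors, matrix proteins and signalling enzymes. Ldb2, an adaptor for LIM-domain transcription factors, was listed at 24.0 and 25.7 FPKM at day 3, 4.77 and 7.49 in the pre-meiotic table, 0.321 and 0.331 at leptotene/zygotene and 0.0846 and 0.0403 at pachytene. Hmcn1, which encodes the matrix protein hemicentin, had 38.8 and 41.3 FPKM at day 3 and 0.379 and 0.381 at pachytene. Adcy2 had 20.03 and 18.5 at day 3 and 0.433 and 0.528 at pachytene. At day 3 the 2 conditions lay close together in these 3 genes, while the tables lay far apart. In the pre-meiotic table Hmcn1 had 4.71 and 7.75 FPKM (0.71), and it and Ldb2 (0.64) were among the 6 highest ratios there. Fbxl7 had 7.91 and 2.63 FPKM at day 3 and 0.0554 and 0.0528 at pachytene, so here the conditions differed too.

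The 11 genes of the opposite pattern were 2210408I21Rik, 4921528I01Rik, 4930485B16Rik, Dnahc7b, Mapk10, Mgat4c, Myt1l, Ndst4, Nol4, Park2 and Spata16. Spata16 had the highest mean level of all long loci. It was listed at 0.0959 and 0.0207 FPKM at day 3, 1.06 and 0.800 in the pre-meiotic table, 219.9 and 208.7 at leptotene/zygotene and 300.3 and 299.9 at pachytene. Its 2 conditions differed by a log2 ratio of -0.08 and -0.00 in the last 2 tables, so this long gene was listed at nearly the same level in both libraries. Dnahc7b, a gene for a dynein heavy chain of the axoneme, had 1.33 and 0.728 FPKM at day 3 and 67.7 and 64.04 at pachytene. 4921528I01Rik was listed at 0 in both conditions of the day 3 table and at 72.0 and 63.7 FPKM at pachytene. Ndst4, a heparan sulfate sulfotransferase, had 0.0595 and 0.0699 FPKM at day 3 and 7.73 and 7.62 at pachytene. Park2, which encodes the ubiquitin ligase parkin and spans 994529 bases, had 2.71 and 2.37 FPKM at day 3 and 22.05 and 22.8 at pachytene. The plot of day 3 against pachytene levels shows both groups.

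**Figure D1:**
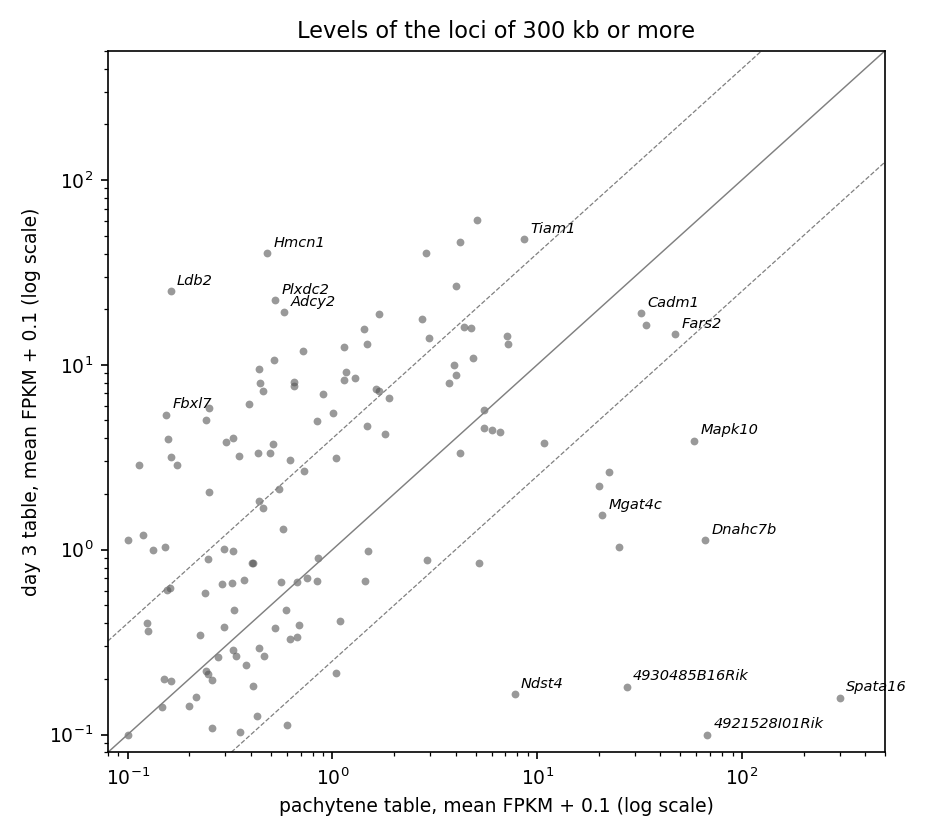
Each point is 1 of the 138 long loci, with the mean FPKM of the pachytene table on the x axis and that of the day 3 table on the y axis, both plus 0.1 and on log scales. The solid line marks equal levels and the dashed lines 4-fold differences. Of the 88 loci with at least 1 FPKM in either table, 49 lie on or above the upper dashed line and 11 on or below the lower one, the farthest being Spata16 and 4921528I01Rik.

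Within each table, the 2 conditions were compared as the log2 ratio of condition 2 over condition 1 after adding 0.1 FPKM to each value. A locus counts as measured where the mean of its 2 FPKM values is at least 0.5. At day 3 the long loci were lower in condition 2. Of 101 measured loci, 88 had a ratio below 0 and 13 above, while 43.8% of all 10142 measured unshared autosomal loci were below 0. The median log2 ratio of the long loci was -0.53 (95% interval over loci -0.74 to -0.39), a fold of 1.44, and that of shorter loci at similar FPKM was 0.01. Condition 2 was at least 2-fold lower in 24 of 101 long loci (23.8%), against 5.38% of all measured loci and 7.35% of shorter loci at similar FPKM. It was at least 2-fold higher in 1 (0.990%), against 3.35% of all measured loci. By the q-values in the authors' deposited table, at a threshold of 0.05, 50 of 130 long loci tested were lower in condition 2 and 0 were higher, against 8.43% and 4.69% of all unshared autosomal loci tested. The other 8 long loci had no completed test. Among these 8, Atrnl1, at 15.3 and 10.6 FPKM, was the 1 whose test the authors marked as failed. These intervals and counts run over loci of 2 libraries and do not hold the variation between animals.

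The day 3 difference was graded by span and did not begin at 300 kb. Among loci with a mean of 1 to 32 FPKM, the median log2 ratio was 0.24 for 2356 loci under 10 kb and 0.02 for 1800 loci of 10 to 30 kb. It was -0.25 for 1450 loci of 30 to 100 kb and -0.41 for 488 loci of 100 to 300 kb. In the long loci it was -0.47 for 56 of 300 to 500 kb (95% interval -0.74 to -0.29) and -0.58 for 18 of 500 kb or more (-0.87 to -0.14). The intervals of the last 3 classes overlapped. In narrower windows of FPKM, the medians of these 3 classes did not fall step by step throughout. They were -0.48, -0.45 and -0.18 (8 loci) at 1 to 4 FPKM, and -0.43, -0.48 and -0.70 (8 loci) at 4 to 16 FPKM. At 16 to 64 FPKM they were -0.37, -0.15 (11 loci) and -0.98 (2 loci). Set against loci of 100 to 300 kb at similar FPKM, the median of the long loci differed by -0.01 in place of -0.54, while the share at least 2-fold lower was 23.8% against 16.1%. Over all 10142 measured loci, Spearman's correlation between span and ratio was -0.45, and within the 101 long loci it was -0.09. All of these loci come from the same pair of libraries, so the correlation is a description of that pair.

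Other quantities of the day 3 table moved with span or with condition. The FPKM of all rows summed to 1.04e+06 in condition 1 and 1.35e+06 in condition 2. Rows under 10 kb held 39.7% and 44.3% of these sums, and the 10 highest rows held 9.07% and 14.3%. The highest row, mmu-mir-703, had 19822 and 39891 FPKM, although a miRNA is shorter than the fragments that such libraries carry. The long loci held 0.0931% and 0.0513% of the sums. The summed markers of undifferentiated spermatogonia were 129.5 and 73.7 FPKM, and those of Sertoli cells were 8335 and 10325. The higher Sertoli sum rested on a few abundant genes: 11 of the 19 markers were lower in condition 2, with a median log2 ratio of -0.13. The part of these quantities in the day 3 difference was not tested.

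**Figure D2:**
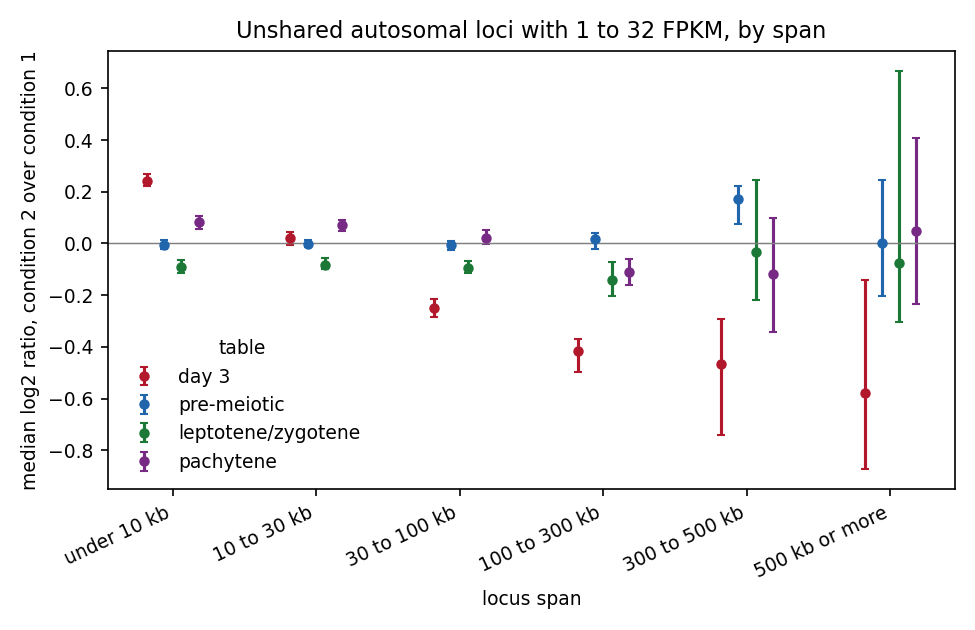
The median log2 ratio of condition 2 over condition 1 (y axis) is plotted for 6 classes of locus span (x axis) in each of the 4 tables, over unshared autosomal loci with a mean of 1 to 32 FPKM. Bars are 95% order-statistic intervals over loci. In the day 3 table the medians step down from 0.24 under 10 kb to -0.58 at 500 kb or more, and those of the pachytene table fall from 0.08 to -0.12 at 300 to 500 kb.

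The pachytene table showed a weaker grading, with lower ratios in wider loci up to 500 kb. The order of conditions may differ from that at day 3, so no shared direction can be read. Among loci of 1 to 32 FPKM the median at pachytene was 0.08 under 10 kb (95% interval 0.06 to 0.10), 0.07 at 10 to 30 kb and 0.02 at 30 to 100 kb. It was -0.11 at 100 to 300 kb (-0.16 to -0.06) and -0.12 at 300 to 500 kb (-0.34 to 0.10), while the 9 loci of 500 kb or more had 0.05 (-0.24 to 0.41). In the pre-meiotic and leptotene/zygotene tables the medians of the classes did not fall step by step. Spearman's correlation between span and ratio over all measured loci was 0.01 in the pre-meiotic table, -0.00 at leptotene/zygotene and -0.05 at pachytene. In the pre-meiotic table the median of 96 measured long loci was 0.14 (95% interval 0.02 to 0.21) and that of shorter loci at similar FPKM was 0.00, with 62 long loci above 0. Set against loci of 100 to 300 kb at similar FPKM, the median of the long loci there differed by 0.10 in place of 0.14. At least 2-fold differences were higher in 3 (3.13%) and lower in 4 (4.17%), beside 3.69% and 4.07% of all measured loci and 6.54% and 7.14% of shorter loci at similar FPKM. The authors' deposited table called 2 long loci higher at a q-value of 0.05 and 0 lower, of 114 tested, against 0.478% and 0.677% of all loci tested. At leptotene/zygotene the median of 81 measured long loci was -0.05 (-0.16 to 0.08) beside -0.07 in shorter loci. There, 2 were at least 2-fold higher (2.47%) and 3 lower (3.70%), beside 6.24% and 6.7% of all measured loci and 10.2% and 10.4% of shorter loci at similar FPKM. The authors' deposited table called 0 higher and 3 lower of 98 tested by q-value, against 0.819% and 1.42% of all.

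At pachytene the median of 69 measured long loci was -0.09 (-0.21 to -0.02), beside 0.05 in shorter loci at similar FPKM, and 46 were below 0. The difference of -0.14 became -0.01 when only loci of 100 to 300 kb served for comparison. Condition 2 was at least 2-fold higher in 2 long loci (2.90%) and lower in 4 (5.80%), beside 4.38% and 5.37% of all measured loci and 7.40% and 8.04% of shorter loci at similar FPKM. The authors' deposited table called 0 higher and 2 lower of 120 tested by q-value, against 0.667% and 0.968% of all. Outside the day 3 table, at least 2-fold differences were less common in long loci than in shorter loci at similar FPKM, in both directions. Each share rests on 2 to 4 long loci, so its interval is wide (1.60 to 14.2% for lower at pachytene). Set against loci of 100 to 300 kb, long loci first, the shares at pachytene were 2.90% and 2.58% higher and 5.80% and 5.23% lower. They were 3.13% and 6.03% higher and 4.17% and 3.38% lower in the pre-meiotic table. At leptotene/zygotene they were 2.47% and 4.24% higher and 3.70% and 8.14% lower. The pattern thus did not hold throughout against this next class of span.

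**Figure D3:**
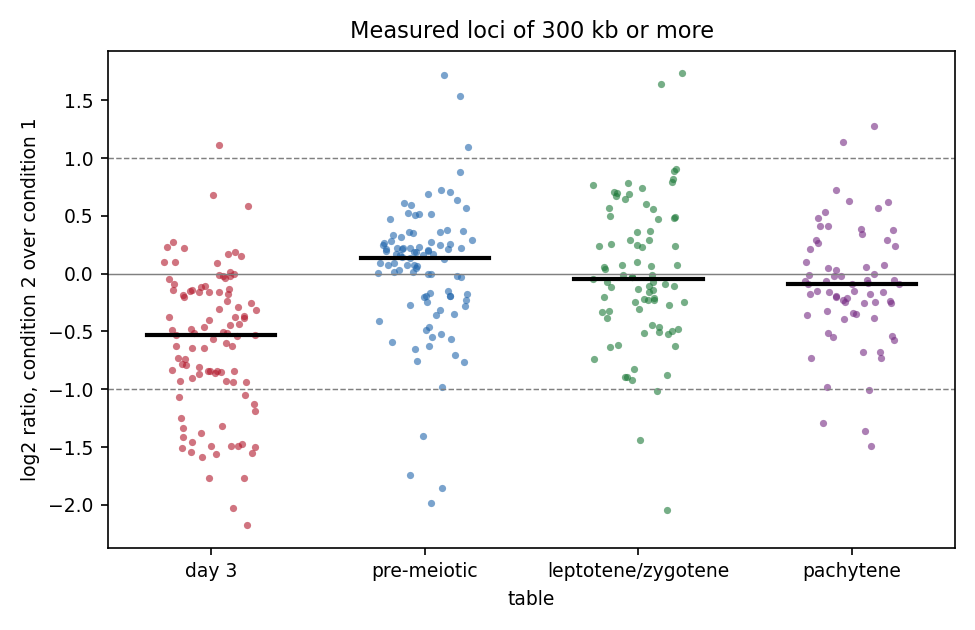
Each point is a measured long locus (101, 96, 81 and 69 in the tables from left to right), with its log2 ratio of condition 2 over condition 1 on the y axis and a small sideways shift for display. Black lines are medians (-0.53, 0.14, -0.05 and -0.09) and dashed lines mark 2-fold differences. At day 3, 24 points lie at or below the lower dashed line and 1, Mgat4c, above the upper one.

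By role, the day 3 difference reached most groups of long genes. The groups overlap in part (Gpc6 is in 2), and 65 of the 138 loci are on no list. The lists were chosen with earlier results of these data known. No list held a member that was 2-fold higher. Of all measured long loci at day 3, 87.1% were below 0 and 23.8% were at least 2-fold lower. Of all long loci tested, 38.5% were called lower, against 8.43% of all unshared autosomal loci tested. The counts of each list are to be read beside these shares. The 14 genes of synaptic adhesion and neurite guidance encode surface proteins and secreted cues that steer axons and join cells. Of the 9 measured, all had a ratio below 0, 5 were at least 2-fold lower, and 7 of the 14 were called lower by q-value in the authors' deposited table. Cadm1, an adhesion molecule that also joins germ cells to Sertoli cells, had 27.8 FPKM in condition 1 and 10.1 in condition 2, a log2 ratio of -1.46. The teneurin gene Odz3 had 25.1 and 9.94 FPKM (-1.33), with a q-value of 1.74e-11 in the authors' deposited table. Sema5a, a transmembrane semaphorin, had 21.7 and 9.46 FPKM (-1.19), with a q-value of 9.72e-05 in the authors' deposited table. Robo1, a receptor for Slit proteins, had 9.59 and 7.24 FPKM and was not called. Lrfn5 and Lsamp, further adhesion genes, differed little, at 3.91 and 3.88 FPKM and at 2.95 and 2.60 FPKM.

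Both long cadherin genes were lower in condition 2 at day 3. Pcdh7, a protocadherin, had 11.7 and 4.08 FPKM, with a q-value of 3.64e-11 in the authors' deposited table. Fat3, a giant cadherin of planar polarity, had 4.43 and 1.51 FPKM, with a q-value of 4.38e-11 in the authors' deposited table. Ptprm, a receptor tyrosine phosphatase, had 10.2 and 5.53 FPKM.

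Of the 8 genes of growth factor signalling and proteoglycans, 5 were measured and all 5 were below 0, with 3 at least 2-fold lower and the same number called in the authors' deposited table. Adamtsl1, an ADAMTS-like protein of the extracellular matrix, had the lowest ratio of all measured long loci, at 11.8 and 2.53 FPKM (-2.18), and its q-value is listed as 0 in the authors' deposited table. Adamts17, a metalloproteinase of the same family, had 9.06 and 2.15 FPKM (-2.02), with a q-value of 0.00219 in the authors' deposited table. Fras1, a basement membrane protein, had 6.97 and 2.73 FPKM (-1.32). Gpc6 had 11.4 and 7.34 FPKM and was not called.

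Among the 10 genes of transcription and chromatin, 9 were measured, 8 of them below 0, 3 were at least 2-fold lower and 4 were called lower in the authors' deposited table. Auts2, which acts with Polycomb proteins, lies at chr5:131913204-133019214 in the tables' own coordinates. It had 29.0 and 8.46 FPKM (-1.77), and its q-value is listed as 0 in the authors' deposited table. Smyd3, a lysine methyltransferase, had 28.3 and 24.6 FPKM, and Ldb2 had 24.0 and 25.7. The group therefore held strongly and barely different genes at like levels.

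Scaffolds and cytoskeletal linkers had 8 of 9 members measured, all below 0, with 1 at least 2-fold lower and 5 called lower in the authors' deposited table. Tiam1, an exchange factor for Rac, had 62.0 and 33.1 FPKM (-0.90), with a q-value of 4.36e-05 in the authors' deposited table. Nav2, a neuron navigator protein, had 17.7 and 10.6 FPKM. Elmo1, which acts in engulfment with Dock proteins, had 16.6 and 15.1, and the formin Diap3 had 13.5 and 12.1. Signalling genes had 9 of 10 measured and all below 0, with 1 at least 2-fold lower and 3 called. That 2-fold lower gene was Tnik, a kinase of the Wnt pathway, at 9.21 and 3.81 FPKM. Adcy2, at 20.03 and 18.5 FPKM, and Arhgap24, at 10.5 in both conditions, were not called.

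Ion channels had 6 of 9 members measured, of which 5 were below 0 and 0 at least 2-fold lower, and 4 of the 9 were called lower in the authors' deposited table. Kcnma1, the large-conductance calcium-activated potassium channel, had 8.70 and 5.02 FPKM. Itpr1, the receptor that releases calcium from internal stores, had 37.0 and 43.3 FPKM and stood above 0. Of the 7 glutamate and GABA receptor genes, 4 were measured, and Grm7 alone was at least 2-fold lower and called, at 0.800 and 0.206 FPKM.

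Shorter unshared genes of several of these lists were lower in condition 2 at day 3 as well, and those of others differed little. Of 28 measured shorter genes of transcription and chromatin, 9 were at least 2-fold lower, with a median ratio of -0.62, against -0.37 in the long ones. Of 25 measured shorter genes of growth factor signalling and proteoglycans, 5 were at least 2-fold lower (median -0.52), against -1.32 in the long ones. Of 17 measured shorter signalling genes, 4 were at least 2-fold lower (median -0.39), against -0.45 in the long ones. Of 8 measured shorter scaffold genes, 2 were at least 2-fold lower (median -0.68), against -0.61 in the long ones. In none of these 4 lists did a shorter gene stand 2-fold higher. In lists with few measured shorter genes, the median was -0.09 for 3 of adhesion (-1.19 in the long ones), -0.02 for 4 receptor phosphatases (-0.87 for Ptprm) and -0.22 for 5 ion channels (-0.62 in the long ones). It was -1.09 for 2 cadherins (-1.50 in the long ones) and -0.38 for 4 glutamate and GABA receptors (-0.43 in the long ones). For 7 shorter RNA-binding genes it was -0.67, against 0.02 for Rbfox1, the 1 long gene of that list.

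The 13 long loci above 0 at day 3 were small differences apart from a few. Mgat4c had 0.869 and 1.99 FPKM (1.11) and was not called (q-value 0.118 in the authors' deposited table). Msra, which repairs oxidized methionine, had 11.1 and 16.7 FPKM (0.59). Fggy, a carbohydrate kinase, had 43.7 and 48.7 FPKM, and Fars2, the mitochondrial phenylalanine tRNA ligase, had 13.6 and 15.5. Long loci above 10 FPKM were therefore found on both sides of 0.

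The 24 loci at least 2-fold lower at day 3 were followed in the other tables, whose orders of conditions are not known to match. In the pre-meiotic table, measurements were found for 23 of them, 16 above 0 and 7 below, with a median of 0.24, beside 62 above 0 of all 96 measured long loci. At leptotene/zygotene 14 were measured, 4 above 0 and 10 below, with a median of -0.22, beside 36 above 0 of all 81. At pachytene 12 were measured, 3 above and 9 below, with a median of -0.25, beside 23 above 0 of all 69. Zmat4, a zinc finger gene, had 3.20 and 0.867 FPKM at day 3 and 0.847 and 2.65 in the pre-meiotic table. Nav3, another navigator gene, was at least 2-fold lower in both, at 1.12 and 0.368 FPKM and then 4.19 and 1.18.

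**Figure D4:**
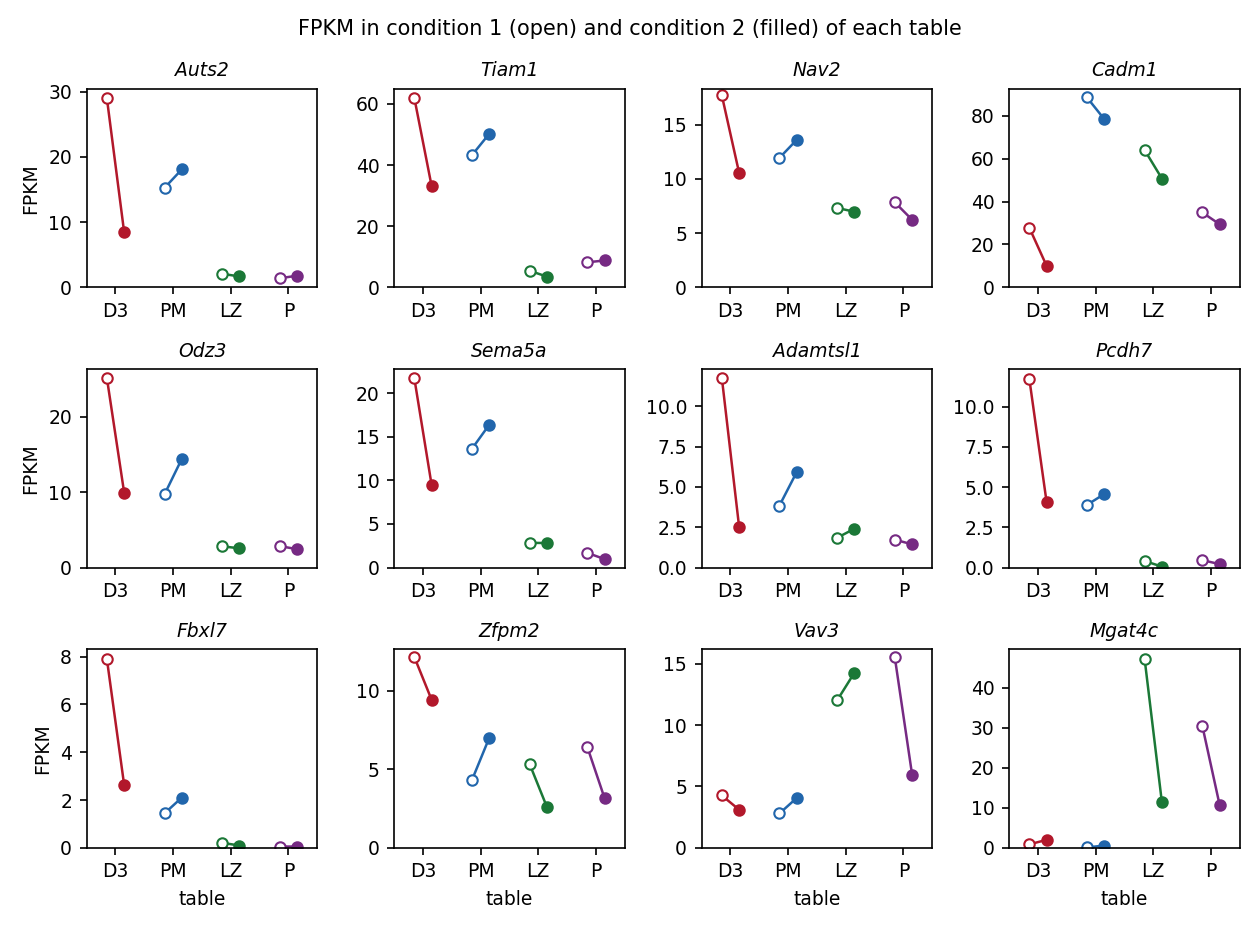
FPKM (y axis, from 0) in condition 1 (open circles) and condition 2 (filled circles) of the day 3 (D3), pre-meiotic (PM), leptotene/zygotene (LZ) and pachytene (P) tables for 12 long loci. The first 9 genes show their widest gap in the day 3 table, Zfpm2 is lower in condition 2 in 3 of the 4 tables, Vav3 has its gap at pachytene and Mgat4c in the last 2 tables.

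Zfpm2 was the long locus called in most tables. It encodes FOG2, the cofactor of GATA4 that is needed for testis formation, and lies at chr15:40486587-40936138 in the tables' own coordinates. Its levels were 12.1 and 9.41 FPKM at day 3, 4.32 and 7.002 in the pre-meiotic table, 5.32 and 2.59 at leptotene/zygotene and 6.42 and 3.15 at pachytene. The log2 ratios were -0.36, 0.69, -1.01 and -1.004. The q-values in the authors' deposited table were 0.130, 0.0171, 0.00433 and 0.0179. Its partner Gata4 was listed at 286 and 232 FPKM at day 3, 139 and 152 in the pre-meiotic table, 2.23 and 1.49 at leptotene/zygotene and 2.75 and 4.52 at pachytene. Zfpm2 was listed at several FPKM in the meiotic tables, where Gata4 and the summed Sertoli markers were far lower than in young testis. Which cells these levels of Zfpm2 came from was not tested.

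Mgat4c had the largest differences of any long locus with at least 1 FPKM in the meiotic tables. It was listed at 47.2 FPKM in condition 1 and 11.3 in condition 2 at leptotene/zygotene (-2.05), with a q-value of 0.00624 in the authors' deposited table. At pachytene it had 30.5 and 10.8 FPKM (-1.49), with a q-value of 0.127 in the authors' deposited table, so that difference was not called. Vav3, a guanine nucleotide exchange factor, had 15.5 and 5.96 FPKM at pachytene (-1.36), with a q-value of 0.0380 in the authors' deposited table, and 12.01 and 14.3 at leptotene/zygotene. Setbp1, which binds the SET protein, was called at leptotene/zygotene at low levels of 0.602 and 0.172 FPKM, with a q-value of 0.0402 in the authors' deposited table. At day 3 it had 4.03 and 2.20 FPKM and was called lower as well.

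In the pre-meiotic table the second called locus was Odz3, at 9.71 and 14.4 FPKM (0.56), with a q-value of 2.01e-06 in the authors' deposited table. It was called in the opposite direction at day 3, where the order of conditions may differ. The lowest ratios there belonged to Agmo, which cleaves ether lipids, at 1.86 and 0.397 FPKM (-1.98), and to Park2 at 6.68 and 1.77 (-1.86), neither of them called. Smyd3 had the highest ratio at pachytene, at 2.24 and 5.59 FPKM (1.28), and Fggy followed at 2.52 and 5.68 (1.14), neither of them called. At leptotene/zygotene the highest ratio among loci with at least 1 FPKM belonged to Plxdc2, a plexin-domain membrane protein, at 0.467 and 1.67 FPKM (1.64), also not called. In that table endothelial markers had a median log2 ratio of 1.02, peritubular myoid and smooth muscle markers one of 1.97, and blood and macrophage markers one of 2.74. Their part in this value was not tested.

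Several of the most abundant long genes differed by less than 2-fold between conditions in the meiotic tables. Mapk10, the JNK3 kinase, had 73.0 and 62.2 FPKM at leptotene/zygotene and 63.4 and 53.1 at pachytene. Fars2 had 36.2 and 31.2 and then 48.1 and 46.0. Cadm1 had 63.97 and 50.7 and then 34.9 and 29.4. Ehbp1, an adaptor of endocytic recycling, had 39.9 and 58.8 and then 35.2 and 33.0. Its log2 ratio at leptotene/zygotene was 0.56, with a q-value of 0.0578 in the authors' deposited table. None of these was called in either meiotic table. Their ratios stayed under 2-fold in both, as did those of Spata16 and Dnahc7b.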

How the data were processed

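The data were 4 tables of gene expression (day 3, pre-meiotic, leptotene/zygotene, pachytene). Per the submitters' processing notes, the authors used Cuffdiff, Cufflinks 1.1.0, Bowtie 0.12.7 and TopHat 1.3.0. Per the file headers, the authors deposited FPKM for 2 numbered conditions and a q-value per gene. Counts per library were not used here, so the depth behind each value is unknown, and a genome build was not given in the sources used here. The members and gene lists were chosen with earlier results of these data known. From the deposited FPKM, log2((condition 2 + 0.1)/(condition 1 + 0.1)) was computed for loci with a mean of at least 0.5 FPKM. Shorter loci were weighted to the same FPKM bins (1 log2 unit wide). Medians carry 95% order-statistic intervals and shares exact (Clopper-Pearson) intervals, both over loci. A q-value of at most 0.05 counted as called. The authors' q-values were copied, and no test was made here because each condition was taken as 1 library. Named genes were the 6 highest and 6 lowest ratios per table among loci with at least 1 FPKM, all called loci, the highest and widest loci, those at the threshold, the largest stage differences and the highest members of each list. Promoter windows came from RefSeq (GRCm38.p6). Scripts were tested on simulated data and run with Python 3.11.15, numpy 2.4.6, pandas 2.3.3 and scipy 1.17.1. Alternatives covered the pseudocount, the floor, the span, shared loci, centring, matching and the q-value threshold. The small RNA libraries were not analysed here. Some named loci are not reported here.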

Additional observations from a re-analysis of the deposited data

How the results depend on the processing

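Of 144 alternative values, 109 lay within the 95% interval over loci of the reported share or median, or within 1.5 times the reported count. These intervals are wide, so such values could still differ much: the share at least 2-fold lower was 8.64% at leptotene/zygotene with a pseudocount of 0.01 FPKM and 8.27% in the pre-meiotic table without a floor, and the share higher was 6.62% at pachytene without a floor and 4.36% at day 3 with shared loci kept. No paired analysis was possible because each condition of a table was taken as 1 library, and for the same reason no replicate could be left out. Keeping only rows whose test the authors marked as done, an alternative chosen after seeing the data, moved none of the reported values beyond these limits. At day 3 the median of long minus shorter loci was -0.37 with a pseudocount of 1 FPKM, -0.21 with shared loci kept and -0.011 against loci of 100 to 300 kb alone. The 1856 shared rows lie in 407 loci, so the span of such a locus need not be that of each gene in it. Values with shared loci kept (849 measured rows at day 3, in place of 101) are therefore not those of long genes alone. The share at least 2-fold lower at day 3 was 15.8% with a pseudocount of 1 FPKM. The share at least 2-fold higher was 0 with a pseudocount of 1 or a floor of 2 FPKM at day 3, in the pre-meiotic table and at leptotene/zygotene. With a span of 500 kb it was 10% in the pre-meiotic table and 0 at leptotene/zygotene, where the share lower without a floor was 11.4%. The pre-meiotic median difference was -0.0029 with a span of 500 kb, a change of sign, and 0.0092 with shared loci kept. The leptotene/zygotene difference of 0.02 changed sign under 3 alternatives, to -0.0026 with a floor of 2 FPKM, -0.063 with a span of 500 kb and -0.022 with a lower span minimum. The pachytene difference was -0.068 without a floor and -0.0063 against loci of 100 to 300 kb. The share of long loci expressed at a level of 0.5 FPKM was 73.2%, 69.6%, 58.7% and 50% in the tables from day 3 to pachytene. With shared loci kept it was 37.5% at day 3 and 35.5% in the pre-meiotic table, and with a span of 500 kb it was 45.9% in the pre-meiotic table and 24.3% at pachytene. By the q-values in the authors' deposited table, shared loci kept gave 30 higher and 224 lower at day 3, 6 and 8 in the pre-meiotic table, 12 and 17 at leptotene/zygotene and 10 and 13 at pachytene. At a q-value of at most 0.01 in the authors' deposited table, 1 pre-meiotic locus stayed higher and 0 pachytene loci stayed lower. The depth is unknown, so no limit from it can be given. The cause of these shifts was not tested.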
